A study of Danio rerio with 11 samples.

Results

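A set of 7 genes outside phototransduction, of 29387 measured, was followed in eyes of srrm3 mutant zebrafish, in which the eMIC domain of the protein is mutated. The genes were clul1 (ENSDARG00000055595), nxnl1 (ENSDARG00000052035), nxnl2 (ENSDARG00000003934), camkk1b (ENSDARG00000015134), nim1kb (ENSDARG00000079031), marchf1 (ENSDARG00000037487) and kcnh7 (ENSDARG00000062687). They were picked by name because their values had been seen to be lower in mutant eyes, so the mutant to wild-type (WT) difference and its change with age chose them and are described here with no test. All 7 had counts in each of the 11 libraries, and all 7 passed the filter on low counts.

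Eyes of srrm3 mutants and of WT fish were collected at ages of 48, 60 and 72 hours (hpf) and 5 days (dpf) after fertilization, and each genotype had 1 library per age. WT heads at 24 hpf gave 1 library, from AB fish, and WT adult retinae gave 2, labelled replicates 1 and 2. Every library was made from tissue pooled over several fish, and the 5 dpf and adult libraries were labelled stranded and extracted with another kit than the 48 to 72 hpf eyes. The WT fish of 48 to 72 hpf are described as siblings of the mutants, genotyped by fin clip; for 5 dpf the labels do not say so. Between 72 hpf and 5 dpf, age and library set cannot be told apart. Both libraries of an age share a set. The labels call the mutants KO, name the 5 dpf fish 17A, and give no further detail of the allele.

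srrm3 encodes a splicing regulator whose eMIC domain promotes the inclusion of microexons, very short exons used mainly by neurons, and photoreceptors have a microexon program of their own. Photoreceptors are the light-sensing rods and cones of the retina, and in zebrafish they are born from about the second day and build their outer segments over the following days. A photoreceptor also depends on secreted survival factors, redox enzymes, calcium-dependent kinases and ion channels beside the light-sensing cascade. clul1 encodes a secreted relative of clusterin that mammals make mainly in cones. nxnl1 and nxnl2 encode the rod-derived cone viability factors RdCVF and RdCVF2, thioredoxin-like proteins known in mice to keep cones alive. camkk1b encodes a calcium and calmodulin dependent kinase kinase, which switches on the kinases CaMKI and CaMKIV. nim1kb encodes a kinase of the AMPK-related family, and marchf1 a membrane-bound ubiquitin ligase that, in mammals, controls the turnover of MHC class II in antigen-presenting cells. kcnh7 encodes a voltage-gated potassium channel of the ether-a-go-go related (ERG) group.

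Library totals ranged from 37724575 to 92560511 counts, with those of the 48 to 72 hpf eyes at 37724575 to 45570408. The srrm3 transcript was detected in all 11 libraries, at a cRPKM of 0.18 in the head and 1.09 to 4.24 in the others, and it was lower in the mutant library at 5 dpf (3.30 against 4.15) and higher in the 3 younger ones. A mutation within a domain need not change the transcript level, so this is a weak check of the labels. Lens genes, which mark whole eyes, summed to a cRPKM of 6759 to 84271 over 26 genes in the 8 eye libraries and to 19.4 and 15.5 in the adult retinae. The 5 dpf mutant library also held transcripts of other tissues. All 21 genes of the exocrine pancreas list were higher than in the 5 dpf WT library, with a summed cRPKM of 5936 against 38.4 and no gene of the list at 0 in either. The list includes CP, which is not a pancreatic enzyme gene and entered through a shortened symbol. All 28 skeletal muscle genes were higher too, with 5835 against 2004. Lens genes were lower in that library, 24 of 24 that entered, with a median log2 ratio of −0.47 and sums of 56982 against 84271. So were 10 of 12 genes of bipolar cells, the neurons that photoreceptors signal to, with a median of −0.47. Of other retinal neurons, 11 of 13 amacrine cell genes (median −0.24) and 8 of 13 ganglion cell genes (−0.13) were lower. In the Müller glia list 2 of 10 were lower (median 0.43), and in the pigment epithelium and visual cycle list 9 of 19 (0.01). The median of all genes was 0.25. The pancreas and muscle lists made up 0.839% and 0.825% of all cRPKM in the 5 dpf mutant library, against 0.0052% and 0.272% in the WT library. The part of all these tissues in the results below was not tested.

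In the 5 dpf pair all 7 genes were lower in the mutant library, by 18.03-fold for clul1 at one end and by 1.446-fold for kcnh7 at the other. In the 48, 60 and 72 hpf pairs kcnh7 was lower each time by more than its counting error. Of the other 6 genes, nxnl1 was lower at 60 hpf and marchf1 higher at 48 hpf by more than counting error, and the remaining ratios had counting intervals that include 1. With a pseudocount of 1, 5 of 7 genes were at least 2-fold lower at 5 dpf, where 2.0% of 19533 genes were; since this contrast chose the genes, nothing is read from the excess. The share of all genes at least 2-fold lower was 0.606% at 48 hpf, 0.632% at 60 hpf and 0.679% at 72 hpf, and 0 of the members that entered were, namely 3, 5 and 6. kcnh7 was the only member that entered all 4 pairs and was lower in each, as 1.74% of 16407 genes were. The values below are cRPKM, which are scaled for gene length, unless stated otherwise.

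**Figure D1:**
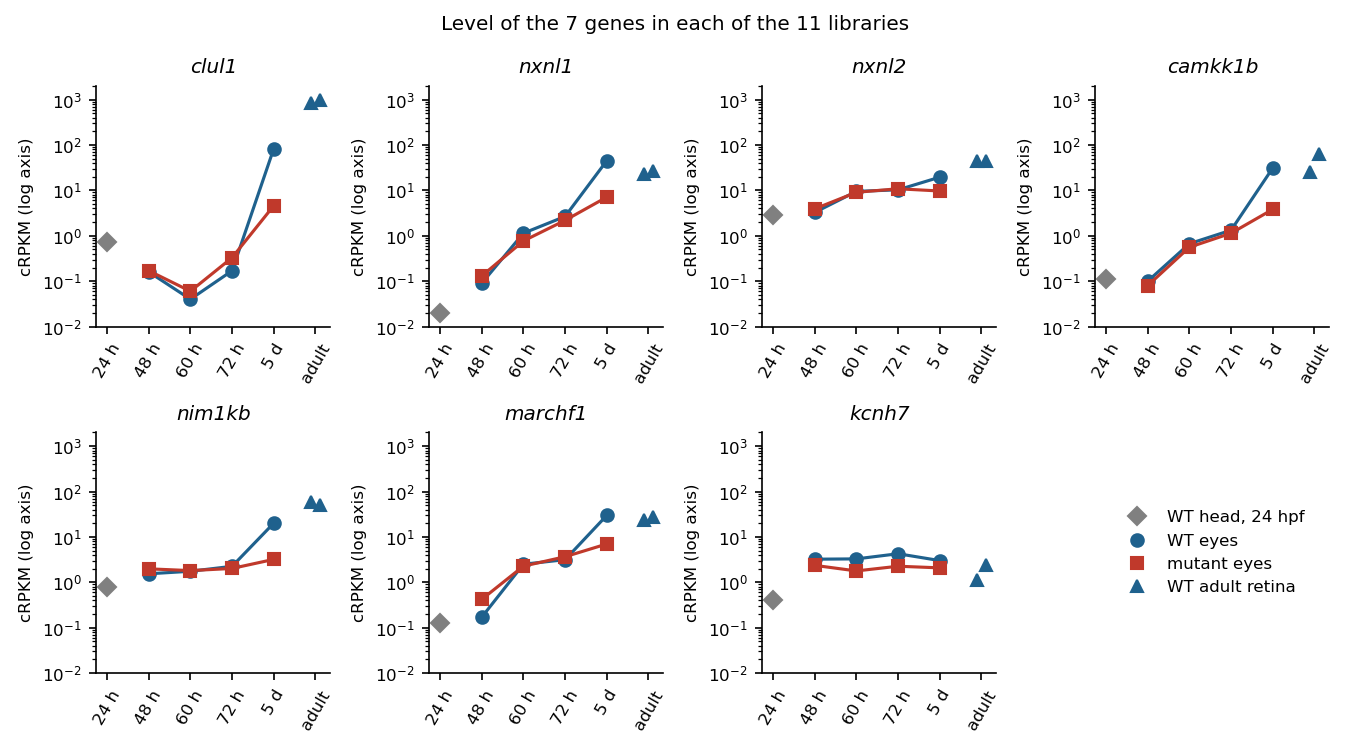
Level of each of the 7 genes (cRPKM, log axis) in the 24 hpf WT head, in WT and mutant eyes from 48 hpf to 5 dpf and in the 2 WT adult retinae, with ages evenly spaced and 1 point per library. For 6 genes the gap between genotypes is widest at 5 dpf, with smaller gaps in either direction at younger ages (marchf1 at 48 hpf 0.42 against 0.17), while kcnh7 stays between 1.12 and 4.26 in eyes and retinae and is lower in the mutant at each age.

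Of the secreted and thioredoxin-like factors, clul1 had the widest range. It stood at 0.73 in the 24 hpf head. Mutant eyes had 0.17 at 48 hpf against 0.16 in WT, 0.06 against 0.04 at 60 hpf, 0.33 against 0.17 at 72 hpf, and 4.62 against 83.36 at 5 dpf. The adult retinae had 825 and 979, the highest levels of any member in any library. The 48 to 72 hpf values rest on 3 to 27 counts per library, and the 95% counting interval of the mutant to WT ratio includes 1 in each of these pairs. At 5 dpf the WT library had 12090 counts and the mutant 835, which puts the mutant at 5.5% of WT. The counting interval of the 18.03-fold difference runs from 16.8 to 19.4. Among the 19533 genes compared in that pair 2 had a lower ratio on the log2 scale, but this contrast chose the gene, so nothing is read from its rank.

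nxnl1 climbed earlier. Its head level was 0.02. Mutant eyes had 0.13 at 48 hpf against 0.09 in WT, 0.77 against 1.14 at 60 hpf, 2.19 against 2.67 at 72 hpf, and 7.12 against 45.17 at 5 dpf. The adult retinae had 23.19 and 27.47, so its highest level was in 5 dpf WT eyes and not in the adult. The mutant to WT ratio was below 1 from 60 hpf on, at 0.673 with a counting interval of 0.482 to 0.935 at 60 hpf and at 0.819 with 0.665 to 1.008 at 72 hpf. At 5 dpf WT exceeded mutant by 6.345-fold (interval 5.97 to 6.74).

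nxnl2, the paralog of nxnl1, was present from the start and differed far less. It stood at 2.89 in the head. Mutant eyes had 3.92 at 48 hpf against 3.27 in WT, 9.10 against 9.52 at 60 hpf, 10.87 against 10.31 at 72 hpf, and 9.71 against 19.59 at 5 dpf. The adult retinae had 44.18 and 43.85. The younger pairs had counting intervals that include 1, and the 5 dpf difference was 2.018-fold (1.846 to 2.208). From 72 hpf to 5 dpf the WT level went up 1.900-fold (1.688 to 2.144), while the mutant level was 0.893-fold (0.791 to 1.010) of its 72 hpf value. At 5 dpf the WT level of nxnl1 was above that of nxnl2 (45.17 against 19.59), and in the mutant it was below (7.12 against 9.71).

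Of the kinases, camkk1b followed a course close to that of nxnl1. It had 0.11 in the head. Mutant eyes had 0.08 at 48 hpf against 0.10 in WT, 0.56 against 0.67 at 60 hpf, 1.14 against 1.33 at 72 hpf, and 3.83 against 31.24 at 5 dpf. The adult retinae stood apart at 25.98 and 62.55, a 2.408-fold gap. On the log2 scale 15.07% of 17451 genes differed at least 2-fold between these adult libraries. The mutant was lower in 4 of 4 pairs, but the counting interval includes 1 in the 3 younger pairs, which rest on 8 to 110 counts per library. At 5 dpf the difference was 8.156-fold (7.553 to 8.817).

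nim1kb was flat before it went up. The head had 0.79. Mutant eyes had 1.98 at 48 hpf against 1.54 in WT, 1.81 against 1.75 at 60 hpf, 2.02 against 2.25 at 72 hpf, and 3.2 against 20.13 at 5 dpf. The adult retinae had 58.75 and 50.41. Between 72 hpf and 5 dpf the WT level went up 8.947-fold (7.489 to 10.77) and the mutant level 1.586-fold (1.297 to 1.951). The younger pairs had counting intervals that include 1, and the 5 dpf difference was 6.289-fold (5.674 to 6.984).

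marchf1, the ubiquitin ligase gene, stood at 0.13 in the head. Mutant eyes had 0.42 at 48 hpf against 0.17 in WT, 2.27 against 2.5 at 60 hpf, 3.66 against 3.15 at 72 hpf, and 6.99 against 29.84 at 5 dpf. The adult retinae had 23.89 and 27.84, both between the 5 dpf mutant and WT levels. At 48 hpf the mutant library was the higher one, with 17 counts against 7 and a ratio of 2.549 (1.005 to 7.270). At 5 dpf WT exceeded mutant 4.268-fold (3.890 to 4.688). The list of microglia and leukocyte genes, cells in which mammalian MARCHF1 acts, went the other way in that pair, with a summed cRPKM of 807 in the mutant and 369 in the WT library over 18 genes and 13 of 13 genes that entered higher. In each of these libraries 1 gene of the list was at 0, and the part of these cells in the marchf1 values was not tested.

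kcnh7 departed from the others in age course and in the size of the difference, so the name of late eye gene does not describe it. It had 0.40 in the head. Mutant eyes had 2.36 at 48 hpf against 3.23 in WT, 1.78 against 3.28 at 60 hpf, 2.26 against 4.26 at 72 hpf, and 2.08 against 3.01 at 5 dpf. The adult retinae had 1.12 and 2.35. The mutant library was the lower one in 4 of 4 pairs, and the counting intervals of the ratio lay below 1 in each. These intervals cover counting error only, and this contrast chose the gene, so nothing is read from their agreement. The ratio was 0.729 (0.634 to 0.837), 0.543 (0.465 to 0.634), 0.530 (0.461 to 0.610) and 0.692 (0.621 to 0.769) from 48 hpf to 5 dpf. The mutant libraries of kcnh7 ranged from 1.78 to 2.36 and the WT larval ones from 3.01 to 4.26. Its 5 dpf difference was thus no larger than those of 60 and 72 hpf, whereas for the other 6 genes the 5 dpf difference was the largest of the 4. Muscle genes were higher in the 48 and 60 hpf mutant libraries too, with summed cRPKM of 13958 against 8554 and of 6434 against 1715. At 72 hpf they had 1634 against 2090. Genes of amacrine cells, inner neurons of the retina, had median log2 ratios of −0.04, 0.01, 0.11 and −0.24 from 48 hpf to 5 dpf, with 8, 6, 4 and 11 of 13 lower. The part of either cell type in the kcnh7 values was not tested.

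**Figure D2:**
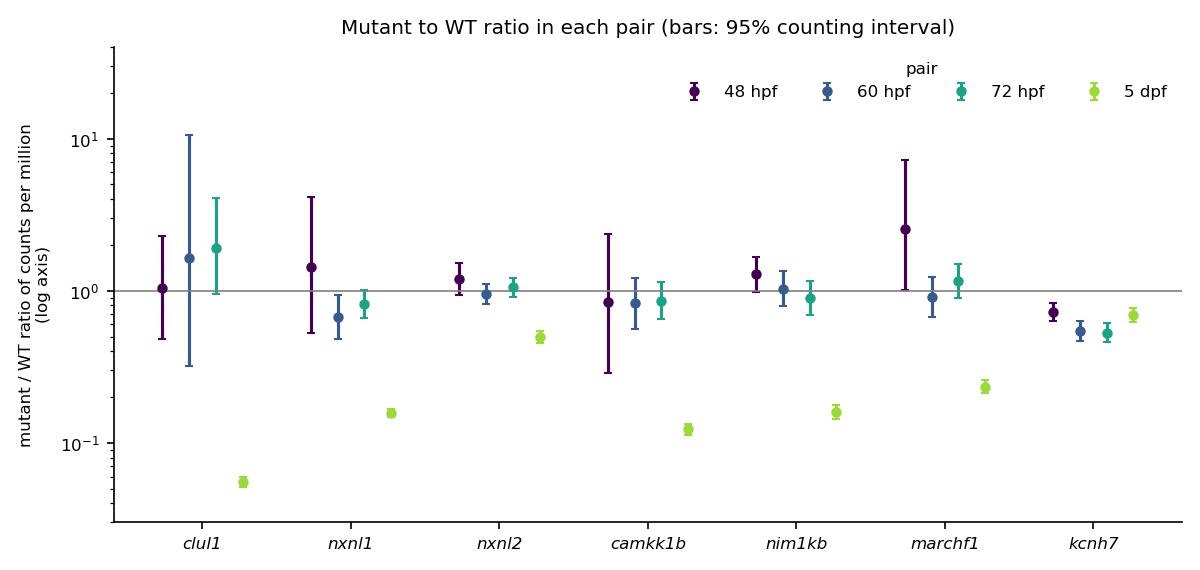
Mutant to WT ratio of CPM, counts scaled to library size (log axis), for each gene in the 48 hpf, 60 hpf, 72 hpf and 5 dpf pairs, 1 library per genotype, with bars for the 95% counting interval and a line at equal levels. The 5 dpf points lie far below the line for clul1 (0.0555), camkk1b (0.123), nxnl1 (0.158), nim1kb (0.159) and marchf1 (0.234), and kcnh7 lies below it in all 4 pairs.

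As a description, the 5 dpf mutant level was set between the WT levels of 72 hpf and 5 dpf. The 5 dpf mutant level of clul1 lay at 5.3% of that WT rise, nim1kb 5.3%, camkk1b 8.4%, nxnl1 10.5% and marchf1 14.4%. Lower mutant values chose the genes, so nothing is read from these small percentages. No percentage is given for kcnh7, whose WT level fell from 4.26 at 72 hpf to 3.01 at 5 dpf. For nxnl2 the mutant level at 5 dpf was below the 72 hpf WT level, by 0.60 cRPKM. Mutant eyes were not without any rise between 72 hpf and 5 dpf. Their clul1 level went up 14.0-fold (9.55 to 21.4) against 485-fold (284 to 912) in WT, camkk1b 3.35-fold (2.72 to 4.16) against 23.4-fold (19.4 to 28.6), and nxnl1 3.26-fold (2.78 to 3.83) against 16.9-fold (14.7 to 19.6). marchf1 went up 1.912-fold (1.586 to 2.319) in the mutant and 9.477-fold (7.819 to 11.59) in WT. These folds compare 1 library with 1 library and span the change of library set.

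Phototransduction genes were lower in the same 5 dpf pair, and the members were placed among them. In bulk tissue, fewer photoreceptors and less RNA per photoreceptor cannot be told apart. Of 28 cone genes that entered, 21 were at least 2-fold lower, with a median of −2.07 on the log2 scale. Of 24 rod genes 19 were, with a median of −2.404. A list of photoreceptor fate regulators differed less, with 13 of 17 genes lower and a median of −0.254. In it 1 gene was at least 2-fold lower and 1 at least 2-fold higher. At 72 hpf 0 of these 17 genes were lower, with a median of 0.337. The median of all genes was 0.25. On this scale clul1 stood at −3.91, below all 24 rod genes and below all but 1 of the 28 cone genes. camkk1b at −2.74, nxnl1 at −2.51, nim1kb at −2.33 and marchf1 at −1.95 lay within 0.67 of the cone median and within 0.46 of the rod median. nxnl2 at −0.94 and kcnh7 at −0.38 lay above both, with 21 and 23 of the 28 cone genes lower than them. This contrast chose the members, so nothing is read from their places among the rod and cone genes. The summed cRPKM of 30 cone genes at 5 dpf was 5425 for the mutant and 32330 for WT, while at 72 hpf it was 3112 and 3098. The rod sum was 1273 and 10250 at the older age, after 980 and 922 at the younger. No gene of the cone or rod list was at 0 in the 5 dpf libraries, and the part of photoreceptor number in the members' values was not tested.

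**Figure D3:**
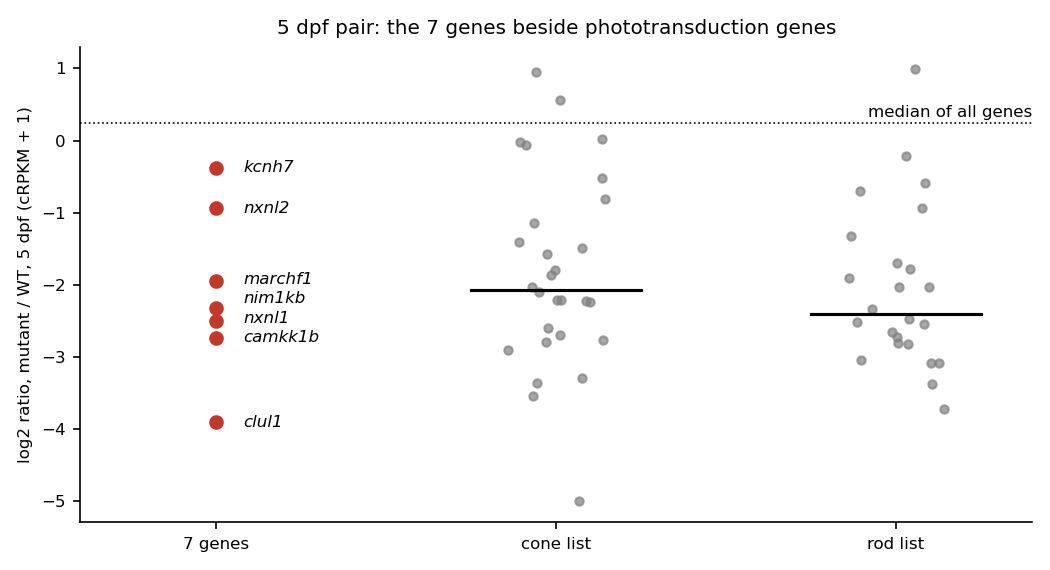
Log2 ratio of mutant to WT cRPKM (pseudocount 1) in the 5 dpf pair for the 7 genes, 28 cone genes and 24 rod genes, with bars at the list medians of −2.07 and −2.404 and a dotted line at the median of all genes, 0.25. clul1 at −3.91 lies near the bottom of both lists, camkk1b, nxnl1, nim1kb and marchf1 lie near their medians, and nxnl2 and kcnh7 lie above them. The contrast shown chose the 7 genes, so nothing is read from their places.

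The course with age was summarised by 1 log2 slope per gene, fitted across both genotypes. The genes were known as late genes from these libraries, so their slopes are a description. Which of them passed the test's threshold is no evidence. Over the 8 larval eye libraries 6 of the 7 slopes passed the threshold upward, where 19.0% of 21829 genes did, and that of kcnh7 did not; nothing is read from the excess. clul1 had the steepest slope, 6.58 ± 1.19 log2 units per doubling of age (SE). nxnl1 had 5.18 ± 0.62 and camkk1b 5.05 ± 0.60. Lower slopes were those of marchf1 (3.73 ± 0.68), nim1kb (1.98 ± 0.55) and nxnl2 (1.23 ± 0.39). kcnh7 stood at −0.10 ± 0.17, and its sign turned to 0.11 without the 5 dpf pair and to 0.03 in WT eyes alone.

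Within the 48 to 72 hpf libraries, which share a library set, 2 of the 7 slopes passed upward, where 1.6% of 21150 genes did. They were those of nxnl1, at 7.26 ± 0.93 per doubling, and camkk1b, at 6.04 ± 0.87. The genes were known as late genes from these same data, so nothing is read from this count or from the passes and misses below. marchf1 had 5.71 ± 1.38 and nxnl2 2.58 ± 0.65. clul1 had 0.67 ± 1.45 and nim1kb 0.32 ± 0.45, far below their slopes with the 5 dpf pair. The slope of nxnl2 was 0.59 ± 0.34 without the 48 hpf pair and also missed the threshold without the 72 hpf pair, with the genotypes of an age summed, with hours as a linear term and in WT eyes alone. That of nim1kb also missed it without the 60 or the 72 hpf pair, and that of clul1 with genotypes summed. In mutant eyes alone the slope was 4.04 ± 0.74 for clul1, 3.77 ± 0.69 for nxnl1, 3.42 ± 0.65 for camkk1b and 0.49 ± 0.32 for nim1kb. WT eyes alone had 8.12 ± 1.48, 6.16 ± 0.53, 6.07 ± 0.40 and 3.06 ± 0.45 for the same genes.

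The rule that chose the genes names no adult value, but adult values of some of them had been seen. The genes were also known as late genes from these data. The count and p-values below are therefore not independent evidence. Compared with the 48 to 72 hpf eyes of both genotypes, 6 of the 7 genes were higher in adult retina, where 34.8% of 21817 genes were. Their direction held in the alternatives, which reuse the same libraries. The difference was 13.26 ± 0.27 log2 units for clul1 (edgeR quasi-likelihood test, Benjamini-Hochberg adjusted p = 9.57e-07), 7.24 ± 0.36 for camkk1b (adjusted p = 8.75e-06) and 5.80 ± 0.21 for nxnl1 (adjusted p = 2.48e-06). It was 5.33 ± 0.12 for nim1kb (adjusted p = 9.57e-07), 4.75 ± 0.25 for marchf1 (adjusted p = 8.39e-06) and 3.11 ± 0.11 for nxnl2 (adjusted p = 2.4e-06). kcnh7 stood at −0.22 ± 0.45 (adjusted p = 0.682), and without adult replicate 1 at 0.25 ± 0.52. Mutant and WT eyes of an age served as replicates in this fit. In WT libraries alone, with the 48 to 72 hpf eyes as 1 group, the adjusted p of the 6 genes ran from 0.00104 to 0.0225 by edgeR. Tissue (retina against whole eye), age and library set differ together in this comparison and cannot be told apart. The microglia and leukocyte list summed to 2219 and 920 in the adult retinae and to 229 to 584 in the 48 to 72 hpf eyes. marchf1 was at 23.89 and 27.84 in the same adult libraries, and the part of these cells was not tested.

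Set beside 5 dpf WT eyes, without a test, the genes divide further. The adult mean of clul1 was 902 ± 109 (SD, n = 2), 10.8-fold the 5 dpf WT level. That of nim1kb was 54.6 ± 5.9, or 2.71-fold, and that of nxnl2 44.0 ± 0.23, or 2.25-fold. camkk1b had 44.3 ± 25.9 and a 1.417-fold ratio, with the 5 dpf WT level of 31.24 between the adult libraries. nxnl1 had 25.3 ± 3.03 and marchf1 25.9 ± 2.79, which are 0.561-fold and 0.867-fold of 5 dpf WT eyes, and kcnh7 had 1.74 ± 0.87 and 0.576-fold. Both adult values lay below the 5 dpf WT value for nxnl1, marchf1 and kcnh7 and above it for clul1, nim1kb and nxnl2.

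**Figure D4:**
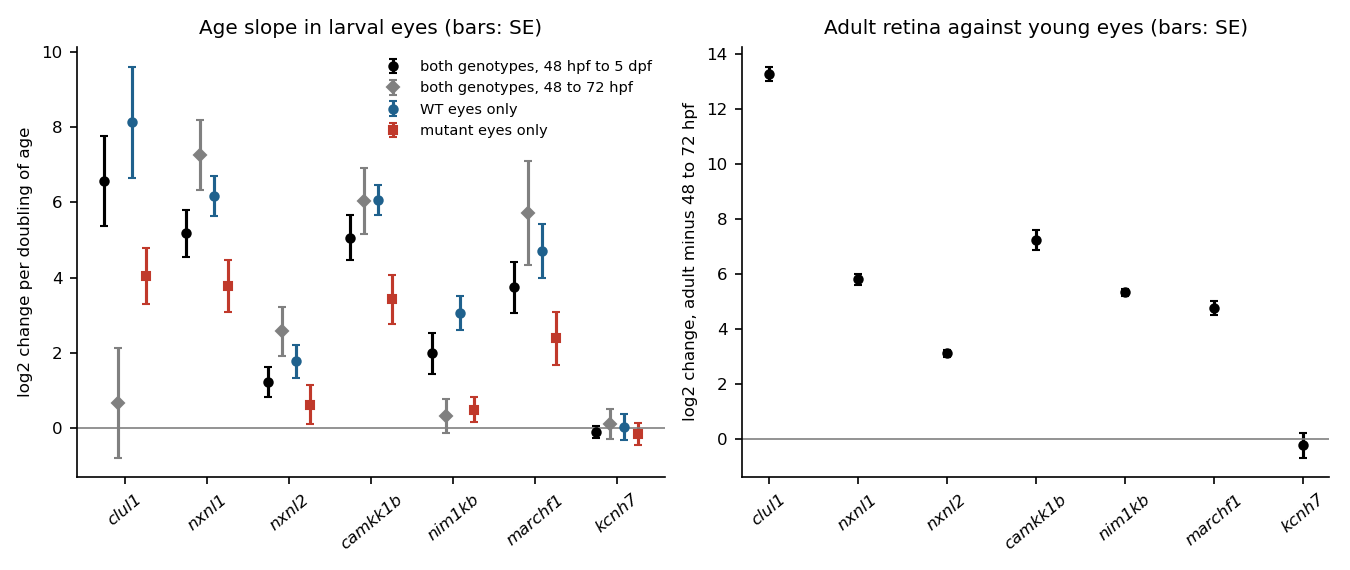
Left, log2 change per doubling of age in larval eyes for each gene, fitted over both genotypes from 48 hpf to 5 dpf, over both genotypes from 48 to 72 hpf, and in each genotype alone; right, log2 difference of adult retina from 48 to 72 hpf eyes; bars are SE. On the left clul1 and nim1kb drop to 0.67 and 0.32 without the 5 dpf pair while nxnl1 and camkk1b stay at 7.26 and 6.04, and on the right 6 genes lie between 3.11 and 13.26 and kcnh7 at −0.22.

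Across the 11 libraries the 6 genes other than kcnh7 ran close to one another, with Pearson correlations of log2(cRPKM + 1) between 0.87 and 0.99. The closest pair was nxnl1 and marchf1 (0.986), then clul1 and nim1kb (0.984). kcnh7 had correlations of −0.18 to 0.10 with the other 6. With the summed rod list the 6 genes had 0.93 to 0.985 and with the summed cone list 0.74 to 0.95; clul1 had 0.933 with rods and 0.739 with cones. These are descriptions over libraries that share age, tissue and library set. The genes were picked from these same data, so nothing is read from their likeness to one another or to the rod and cone lists. How often other genes reach such correlations was not counted.

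The 3 genes with a symbol whose course was most like each member were found among all genes that reached a cRPKM of 5. For clul1 they were ppp1r3c2b (r = 0.997), slc1a8b (0.996) and PPP1R13B ENSDARG00000004377 (0.996). At 5 dpf ppp1r3c2b had 2.83 in the mutant and 15.05 in WT, and 81.2 and 99.9 in the adults. For nxnl1 they were FRMPD2 (0.994), ANKRD33 (0.992), whose mouse counterpart is a transcriptional cofactor of photoreceptors, and si:ch211-132f19.7 (0.991). For nxnl2 they were TLCD5 ENSDARG00000035163 (0.997), si:ch211-113d22.2 (0.995) and GNAT1 (0.995), the rod transducin subunit gene, which had 40.9 and 435 at 5 dpf.

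For camkk1b they were rp1 (0.996), which encodes a microtubule protein of the photoreceptor cilium, ACVR1C (0.993), an activin receptor gene, and samsn1b (0.992). For nim1kb they were zgc:158258, cdc14aa and si:ch211-163l21.11 (0.990 each). For marchf1 they were SLC1A2 ENSDARG00000052138 (0.998), a glutamate transporter gene with 12.0 and 65.5 at 5 dpf, pnp6 (0.996) and LRIT2 (0.993). kcnh7 had no match as close, with fynb (0.897), a Src family kinase gene, lrp11 (0.878) and ST8SIA5 (0.876), a sialyltransferase gene. The names depend on the measure: 12 of the 21 stayed among the first 3 without the head, 8 without the 5 dpf mutant library, 7 over the 7 WT libraries and 0 by Spearman correlation. They are a description too, and shared regulation was not tested.

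The relatives of the 7 genes were examined by family, 111 genes in 6 lists without the members. For the genotype effect over all ages 0 of the 111 passed edgeR's test, with 9 at an unadjusted p under 0.05 and a median log2 change of −0.07. Over all genes 1 of 21829 was higher (0.00458%) and 0 were lower (0.0%), with 1074 at an unadjusted p under 0.05. DESeq2 called 8 higher and 51 lower. The fit has 1 genotype term for all ages, so a difference at 5 dpf alone adds to the spread. In the same edgeR fit 0 of 24 rod and 0 of 29 cone genes passed. The 0 of the 111 therefore does not show that the relatives are unchanged at 5 dpf. With age 33 of the 111 rose and 12 fell, against 19.0% and 18.2% of all genes. In adult retina 59 were higher and 15 lower, against 34.8% and 31.4%. These shares also stand beside the counts of each list below. The relatives' age slopes include the 5 dpf pair, where age and library set cannot be told apart. Without that pair 338 genes of all tested rose and 343 fell, against 4157 and 3983 with it. Single relatives at 5 dpf are given below with no test.

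In the clusterin list CLU, clusterin itself, had 34.83 at 5 dpf in the mutant and 32.85 in WT, where clul1 had 4.62 and 83.36. CLU rose with age by 1.69 ± 0.17 per doubling (adjusted p = 0.000648 by edgeR; genotypes of an age entered as separate libraries, which can make p-values of age too small) and was higher in adult retina by 5.63 ± 0.16 (adjusted p = 1.29e-06). The other genes of this list encode plasma proteins that the liver makes. Of the 6, 1 rose and 3 fell with age, namely serpina1 (−3.21 ± 0.75, adjusted p = 0.0125), VTN ENSDARG00000055388 (−2.99 ± 0.62, adjusted p = 0.0075) and a2ml (−2.91 ± 0.83, adjusted p = 0.0261). Besides CLU, the genes VTN ENSDARG00000053831 (2.66 ± 0.25) and hp (2.63 ± 0.19) were higher in adult retina. serpina1 (−11.53 ± 0.58), a2ml (−9.59 ± 0.94) and VTN ENSDARG00000055388 (−3.89 ± 0.34) were lower there.

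The list of thioredoxin-fold genes also holds the partners through which RdCVF is known to act in mice, basigin and the glucose transporter GLUT1. Of its 23 genes 5 were lower in the 5 dpf mutant library, with a median log2 ratio of 0.37 where that of all genes was 0.25. At least 2-fold lower was 1 of the 23, where 2.0% of all genes were. BSG, the basigin gene, had 190.3 at 5 dpf in the mutant and 178.5 in WT, and NXN, the founding relative of nxnl1, 10.7 and 11.6. One GLUT1 gene, SLC2A1 ENSDARG00000001437, had 17.97 and 77.5, a 4.313-fold difference (counting interval 4.136 to 4.499), and its paralog SLC2A1 ENSDARG00000007412 had 16.34 and 12.44. The first rose by 2.97 ± 0.45 per doubling of age (adjusted p = 0.00222) and was 4.58 ± 0.26 higher in adult retina (adjusted p = 1.28e-05). Of 23 genes 6 rose and 5 fell with age, where 19.0% and 18.2% of all genes did. Among those called were TXNIP ENSDARG00000070000 (1.92 ± 0.48), TXNDC12 (−0.997 ± 0.26) and TXNDC5 (−0.95 ± 0.16). In adult retina 8 were higher and 4 lower, where 34.8% and 31.4% of all genes were. Among those called were SLC16A3 ENSDARG00000028583 (1.61 ± 0.26), SLC16A1 ENSDARG00000016963 (−2.23 ± 0.22) and GLRX (−1.53 ± 0.56).

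In the calcium and calmodulin kinase list the paralogs of camkk1b were close between genotypes at 5 dpf. CAMKK1 had 2.22 in mutant and 2.34 in WT eyes and camkk2 11.03 and 12.28. The CaMKI gamma genes, which encode kinases of the group that CaMKK activates, were lower in the mutant. camk1ga had 9.08 and 78.06, an 8.60-fold difference (8.13 to 9.10), and CAMK1G 13.91 and 50.36, a 3.621-fold one (3.517 to 3.729). At 72 hpf camk1ga had 1.11 and 0.75 and CAMK1G 2.35 and 1.76. CAMK2A went the other way at 5 dpf, with 14.04 and 2.43. Of the 20 genes of the list 2 were at least 2-fold lower in that pair, where 2.0% of all genes were, and 1 was at least 2-fold higher. The median log2 ratio of the list was −0.07.

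These CaMKI gamma genes had the steepest age slopes of the list. camk1ga rose by 6.38 ± 0.65 (adjusted p = 0.000707) and CAMK1G by 4.23 ± 0.45 (adjusted p = 0.000743), and both were higher in adult retina, by 9.97 ± 0.43 and 9.18 ± 0.19. CAMK2A (−2.32 ± 0.37) and CALM2 (−0.93 ± 0.17) were lower in adult retina. Over both genotypes the age slope of CAMK2A in larval eyes was upward (2.01 ± 0.61, adjusted p = 0.0329 by edgeR). From 48 hpf to 5 dpf its WT eyes had 0.84, 3.19, 2.93 and 2.43, and its mutant eyes 0.55, 2.7, 3.66 and 14.04. The rise after 72 hpf was thus in the 5 dpf mutant library only. Of the 20 genes 10 rose and 0 fell with age, and 15 were higher and 2 lower in adult retina.

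Among AMPK and its relatives, nim1ka, the paralog of nim1kb, had 4.62 at 5 dpf in the mutant and 2.25 in WT, opposite in direction to nim1kb with 3.2 and 20.13. PRKAA1, a catalytic subunit of AMPK, had 9.34 and 9.13, and STK11, the upstream kinase LKB1, 17.6 and 18.7. Of the 38 genes 0 were at least 2-fold lower in that pair, where 2.0% of all genes were. With age 6 rose and 4 fell, led by SIK2 ENSDARG00000079618 (3.03 ± 0.37, adjusted p = 0.00116) and SIK1 (1.75 ± 0.33), and by MELK (−1.17 ± 0.15), a kinase of dividing cells, and PRKAB1 ENSDARG00000046143 (−0.83 ± 0.21). In adult retina 17 were higher and 4 lower, led by SIK2 ENSDARG00000079618 (5.70 ± 0.45) and SIK2 ENSDARG00000062315 (4.44 ± 0.17), and by MELK (−2.61 ± 0.35) and hunk (−2.13 ± 0.15).

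In the MARCH list, which also holds the MHC class II chaperone genes cd74a and cd74b, 10 genes entered at 5 dpf. Of these 0 were at least 2-fold lower in the mutant, where 2.0% of all genes were. MARCHF8, the closest relative of marchf1, had 3.58 and 3.87. With age 3 of 12 rose and 0 fell: cd74a (3.197 ± 0.55), cd74b (2.87 ± 0.45) and MARCHF4 ENSDARG00000056439 (2.01 ± 0.45). In adult retina 8 were higher and 1, marchf11, lower (−1.48 ± 0.51), with cd74a at 12.15 ± 0.77 and cd74b at 10.41 ± 0.81. cd74a stood at 546 and 85.2 in the adult replicates, where marchf1 had 23.89 and 27.84.

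In the KCNH list, which also holds KCNE4, a channel accessory subunit gene, 8 relatives entered at 5 dpf. With a pseudocount of 1, 0 were at least 2-fold lower on the log2 scale, where 2.0% of all genes were. In the mutant 7 of 8 were lower, with a median of −0.23 where the median of all genes was 0.25. The share of all genes that were lower was not counted. The largest difference was that of kcnh6b, with 0.65 and 1.82. It stood at −0.77 with the pseudocount and is more than 2-fold lower without it. kcnh7 was the most abundant gene of its family per length in WT eyes from 48 to 72 hpf, with 3.23 to 4.26, where kcnh3 had 1.16 to 1.59 and kcnh6a 0.65 to 0.82. In the adult retinae kcnh6a had 9.80 and 15.47 and kcnh7 1.12 and 2.35. Of the 12 relatives 7 rose with age and 0 fell, led by KCNH5 ENSDARG00000069117 (2.46 ± 0.45) and KCNH4 ENSDARG00000061990 (2.399 ± 0.22). In adult retina 8 were higher, led by kcnh6a (4.55 ± 0.22) and KCNH4 ENSDARG00000061990 (4.30 ± 0.22), and 1 was lower, KCNH8 (−2.96 ± 0.42). Over all genes 19.0% rose with age and 34.8% were higher in adult retina. kcnh7 passed the threshold in neither fit. Of the 12 relatives 5 did not pass in the age fit and 3 in the adult fit. A miss beside passes does not show a difference, and no test of one was run.

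**Figure D5:**
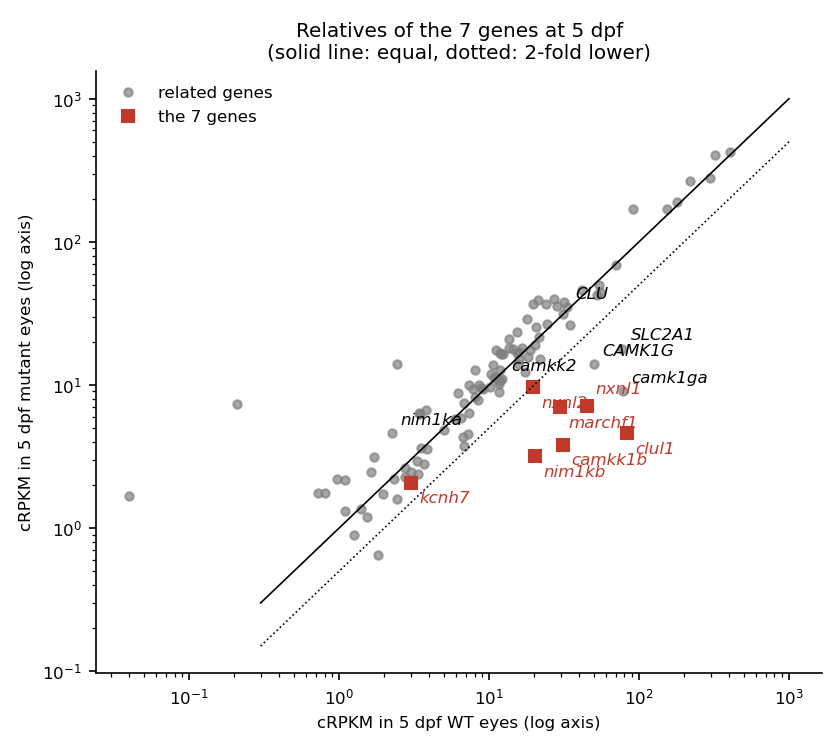
cRPKM in 5 dpf mutant against 5 dpf WT eyes (log axes, 1 library each) for the 7 genes and their relatives with a cRPKM of at least 1 in either library, with lines for equal and for 2-fold lower levels. Most relatives lie near the line of equal levels, while camk1ga (9.08 and 78.06), CAMK1G (13.91 and 50.36) and a SLC2A1 gene (17.97 and 77.5) lie among the members. On the other side of that line lie serpina1 (7.39 and 0.21), a2ml (1.67 and 0.04) and CAMK2A (14.04 and 2.43).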

How the data were processed

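The 11 libraries were sequenced from polyadenylated RNA of larval eyes, adult retinae and heads. Of 31848 Ensembl genes listed, 29387 had values and were used. For each gene the authors deposited raw counts and a cRPKM, an RPKM (reads scaled by gene length and library depth) made with a correction, an aligner, a counter and a use of strand unknown here (not given in the sources used here). The submitters' processing notes name the build danRer10. Antisense and overlapping genes cannot be told apart. Symbols came from a table of gene names, matched without regard to case; 25682 genes (87.4%) had one. A list symbol without a match was looked up without its trailing letter, a digit after that letter or a dotted number. This lookup also brought CP into the exocrine pancreas list. A symbol carried by several genes is printed with its identifier.

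Tests used the deposited counts in edgeR 4.0.16 (R 4.3.3) with TMM scaling, the filterByExpr filter and robust quasi-likelihood tests, and p-values were adjusted by Benjamini-Hochberg over all genes tested (threshold 0.05). The age slope was fitted over 8 larval eye libraries in log2 hours with genotype as a term (5 residual degrees of freedom). Adult retina was compared with the mean of the 48, 60 and 72 hpf eyes of both genotypes, with stage as a factor (4 residual degrees of freedom). The genotype effect was fitted with stage as a factor (3 residual degrees of freedom) and is tested for related genes only; of the age slope, too, no p-value is given for the 7 genes. SE were derived from the test's F and are approximate. Single pairs have 1 library per genotype and no test. Their ratios are of CPM (counts scaled to library size), with an exact 95% interval that covers counting error only, or of log2(cRPKM + 1), which understate the change of low genes. A gene entered a pair's comparison where its higher library reached a cRPKM of 1. Alternatives were RLE scaling, DESeq2 1.42.0, limma 3.58.1 on log2 cRPKM, no low-count filter, left-out libraries, other age scales and other pseudocounts. The fits were tested on simulated data.

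The 7 genes and all lists were chosen with earlier results of these data known. All 7 are named, with the 3 genes of highest correlation to each, the closest paralogs, and up to 2 genes per direction and test from each list of related genes. Nothing in the labels says that the adult replicates came from separate fish, so p-values measure the spread between these libraries, which may be technical. In the adult comparison, which had no genotype term, that spread also holds the differences between mutant and WT eyes of an age.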

Additional observations from a re-analysis of the deposited data

Results flagged for a closer look

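The mutant to WT ratio of clul1 was 0.0555 in the 5 dpf pair and above 1 in each of the 3 younger pairs, at 1.050, 1.648 and 1.922. It was singled out because every younger pair lay on the other side of equal levels. The younger ratios rest on 3 to 27 counts per library and their counting intervals include 1, and the difference between the ages was not tested here. No group held the 4 or more libraries that a search for a stray library needs.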

How the results depend on the processing

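Without the 5 dpf pair 338 genes rose and 343 fell with age, with genotypes summed 1056 and 379, in WT eyes alone 1161 and 315 and in mutant eyes alone 411 and 133, against 4157 and 3983 in all; without the 48 hpf pair 2575 fell. Of the 7 genes 2 were called without the 5 dpf pair and 0 in mutant eyes alone, where 4 libraries remain. The genes were known as late genes from these data, so nothing is read from these 2 counts. In WT libraries alone 4401 genes were higher and 3963 lower in adult retina. kcnh7 turned to 0.11 (age slope without the 5 dpf pair), to 0.027 (WT eyes alone) and, leaving out an adult replicate, ranged from −0.99 to 0.25. The genotype calls over all genes were 8 higher and 51 lower by DESeq2, 3 higher with no filter, 0 higher by limma, 1 lower without the 48 hpf pair, 0 higher without the 60 hpf pair, 2 and 2 without the 72 hpf pair, and 0 and 3 without the 5 dpf pair. Of the 21 likeness names 12, 8, 7 and 0 stayed without the head, without the 5 dpf mutant library (chosen after seeing the data), in WT libraries and by Spearman. By limma on log2 cRPKM the median gene of the adult comparison moved to −0.30 from 0.03, and 34.1% of the called genes were higher in place of 52.6%. Apart from fewer libraries, the cause of these moves was not tested. Of the 5 dpf pair, 5 or 6 members were at least 2-fold lower under each alternative. This pair chose the genes, so nothing is read from that count. The share of all genes was counted under the main setting only, at 2.0% of 19533. The genotype fit compared the genotypes within each age. Depth limits the 48 and 60 hpf values of clul1, nxnl1, camkk1b and marchf1, which have 3 to 17 counts at 48 hpf or, for clul1, at 60 hpf.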
